A study of Mus musculus with 16 samples.

Results

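Glutathione and antioxidant enzymes were followed in hearts of 12-week-old mice that lacked the muscle ring finger proteins MuRF1 (gene Trim63) and MuRF2 (gene Trim55), ubiquitin ligases of striated muscle. The set held every glutathione transferase of the alpha, mu, kappa, omega, pi, theta and zeta classes, the microsomal glutathione transferases, the glutathione peroxidases, peroxiredoxins, thioredoxins and proteins named after the thioredoxin fold, the superoxide dismutases, catalase, the enzymes that make and recycle glutathione, Nqo1 and Hmox1. Members were matched by gene name and not by any measured value, although the set was chosen with earlier results of these data known. They came to 74 genes, read by 121 probes, among 27670 named genes on the array. Of these, 64 were bright enough to be tested, among 12331 tested genes in all. The other 10 members (Gstm6, Gstt4, Gstp3, Gpx5, Gpx6, Sod3, Txndc2, Txndc8, Nme8 and Nxnl1) were well above background (called above background below) on fewer than 4 of the 16 arrays and were not tested.

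The 16 hearts fell into 4 strain-matched groups of 4 animals, one heart to an array. The groups were MuRF1 -/- // MuRF2 -/- (called double null here), MuRF1 -/- // MuRF2 +/- (MuRF1 null MuRF2 het), MuRF1 +/- // MuRF2 -/- (MuRF1 het MuRF2 null) and MuRF1 +/+ // MuRF2 +/+ (wild type). The study asked whether MuRF1 and MuRF2 act redundantly in growth of the heart, and no single-gene null with 2 intact copies of the other gene was among the groups. The labels used here state neither the sex of the mice nor how the null alleles were made. Each array set heart RNA, in the Cy5 channel, against 1 common reference in the Cy3 channel, a pool of RNA from entire C57BL/6 newborns at postnatal day 1. Each value below is therefore the log2 ratio of heart to reference for the brightest probe of a gene: 0 means as much signal as in the pups, and levels are compared between groups for 1 probe and never between probes. No dyes were swapped, so dye bias that differs with brightness was not balanced.

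Glutathione is a small thiol peptide that Gclc and Gclm, the 2 subunits of glutamate-cysteine ligase, and Gss make, and that Gsr returns to its reduced form with NADPH. Glutathione peroxidases spend it to reduce peroxides, and glutathione transferases join it to reactive lipids and foreign compounds. In parallel, thioredoxin reductases recharge thioredoxins, which in turn serve the peroxiredoxins. Superoxide dismutases turn superoxide into hydrogen peroxide and catalase breaks that down. Many of these genes carry binding sites for the transcription factor NRF2 (gene Nfe2l2), which the adaptor KEAP1 holds down until oxidants or electrophiles modify it. Heart muscle is rich in mitochondria and depends on these enzymes.

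Because the clearest differences concerned 2 members of the alpha class, Gsta1 and Gsta2, both on chromosome 9, the probes that read them are shown first. Both probes are 60 bases long. Their capitals mark a stretch of 28 bases that the last part of the Gsta1 probe and the first part of the Gsta2 probe share with 1 mismatch (96.4% identity), so that cross-hybridisation between these near-identical transcripts cannot be told apart from signal of each gene.
Gsta1 probe: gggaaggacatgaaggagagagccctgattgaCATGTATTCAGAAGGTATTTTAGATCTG
Gsta2 probe: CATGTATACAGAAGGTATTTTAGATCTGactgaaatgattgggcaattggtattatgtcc

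The 250 bases before the start of each gene, from RefSeq on build GRCm38.p6, are shown because the signals of both probes moved together. Capitals mark identical runs of 15 or more bases. Whether these runs bear on the signals was not tested. The windows share 2 such runs, of 44 bases in all, the longer of 29 bases. Gsta1 lies on the plus strand (chr9:78230419-78230668) and Gsta2 on the minus strand (chr9:78347146-78347395).
Gsta1 promoter: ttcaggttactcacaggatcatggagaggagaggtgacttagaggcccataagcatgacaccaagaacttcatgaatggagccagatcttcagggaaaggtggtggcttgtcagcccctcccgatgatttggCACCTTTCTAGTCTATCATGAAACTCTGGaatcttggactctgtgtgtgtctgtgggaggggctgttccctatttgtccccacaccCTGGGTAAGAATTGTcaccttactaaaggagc
Gsta2 promoter: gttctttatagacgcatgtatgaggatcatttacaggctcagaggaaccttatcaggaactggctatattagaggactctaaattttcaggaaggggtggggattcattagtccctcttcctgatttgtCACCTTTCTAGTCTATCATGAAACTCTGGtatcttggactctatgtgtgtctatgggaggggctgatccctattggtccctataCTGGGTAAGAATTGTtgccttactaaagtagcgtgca
A search on both strands for TGACNNNGC, the core letters of the element that NRF2 binds, found it in 13 of the 64 members with a promoter in the RefSeq table (20.3%), against 14% of all genes there, in windows of 250 bases before to 50 bases after the start. The 13 were Gclm, Gsta3, Gstm5, Gstm7, Mgst1, Prdx1, Sod1, Tmx1, Tmx4, Txndc11, Txndc2, Txndc5 and Txnrd1. Neither Gsta1 nor Gsta2 held these letters in this window. The overlapping motif TGAGTCA, an AP-1 site, was in 5 of the 64 members (7.81%) and in 5.95% of all genes.

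The arrays differed in brightness, and this bears on several members. In the heart channel, 6037 to 14503 probes were well above background on double null arrays, 6402 to 15067 on MuRF1 null MuRF2 het arrays, 16129 to 17391 on MuRF1 het MuRF2 null arrays and 15171 to 16664 on wild-type arrays. The dimmest were double null 2 and MuRF1 null MuRF2 het 1, and the file of double null 2 alone held values rounded to 3 significant digits. Double null 1 and 2 shared a slide with wild type 1 and 2, and double null 3 and 4 shared another with wild type 3 and 4. All MuRF1 null MuRF2 het hearts lay on 1 slide and all MuRF1 het MuRF2 null hearts on another, so for these 2 groups slide and genotype cannot be told apart. Trim63, the MuRF1 gene, averaged -0.72 ± 0.27 in double null hearts, -0.64 ± 0.22 in MuRF1 null MuRF2 het hearts, 1.94 ± 0.21 in MuRF1 het MuRF2 null hearts and 2.63 ± 0.09 in wild-type hearts (SD, n = 4 each). The Trim55 probe did not pass the test in any comparison, and since its place relative to the deleted part is not known here it checks nothing. Heart identity was clear: the mean log2 ratio of 8 cardiomyocyte markers was 2.66 to 3.71 over the 16 arrays.

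Against wild type, double null hearts had the widest change: 12 of the 64 tested members rose and 6 fell (28.1%), where 22.2% of all tested genes were called (10.2% higher, 12% lower), at an adjusted p under 0.05 (limma, Benjamini-Hochberg over all tested genes). The median log2 difference of members was 0.11, against 0.01 for all tested genes, and 18 members (28.1%) had groups that did not overlap, against 25.5% of all tested genes. The share of members called was thus close to that of all genes. In MuRF1 null MuRF2 het hearts 2 members rose and none fell, where 1.03% of tested genes were called (0.316% higher, 0.714% lower), and 12 members (18.8%) had an unadjusted p under 0.05, against 23.1% of all tested genes. In MuRF1 het MuRF2 null hearts none rose and 2 fell, where 1.98% were called (0.649% higher, 1.33% lower), and 13 (20.3%) had an unadjusted p under 0.05, against 16.2% of all tested genes. With slide as a fixed block, which the double null and wild-type arrays allow, 17 members were called and 15 of the 18 kept their call. The 3 comparisons share the wild-type arrays. Whole hearts were measured, so fewer cells of a type and less RNA per cell cannot be told apart. The direction of many members depends on the scaling. With the ratios of each array centred on their median in place of loess, the median of all tested genes lay at -0.49 in double null minus wild type, 10 of the 12 members that rose fell below 0, and 6 of them (Erp44, Glrx3, Gpx1, Txndc17, Txnl1 and Txnrd1) fell below that all-gene median too. The plot of all members shows which families hold the differences.

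**Figure D1:**
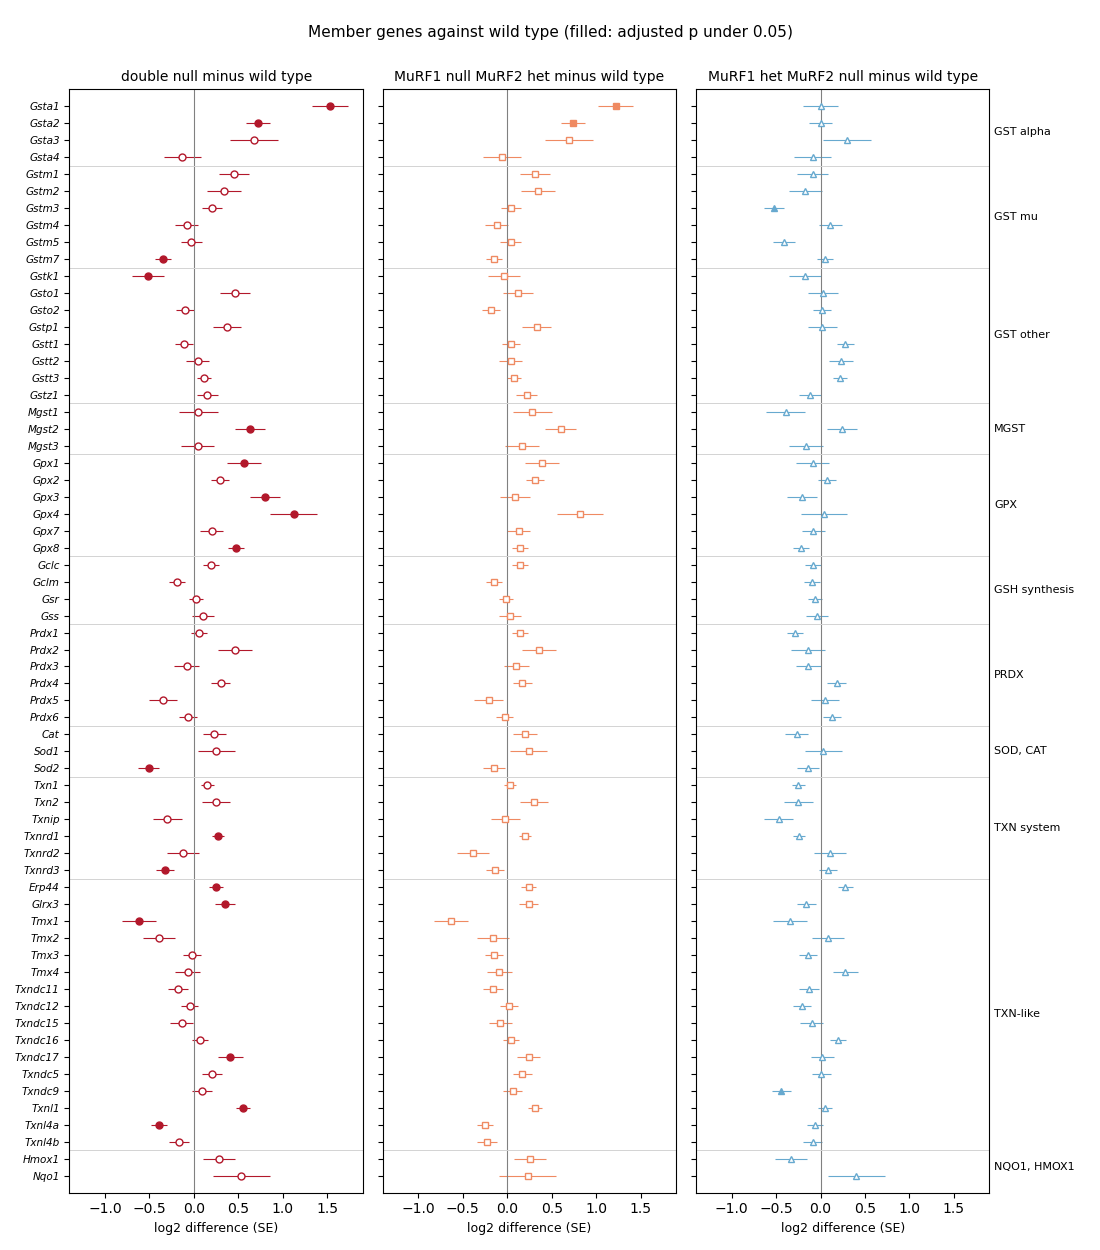
Log2 difference from wild type (x axis, bars are SE) of the 64 tested members, grouped by role down the page, for the 3 mutant groups in 3 panels, double null on the left; filled symbols have an adjusted p under 0.05. Gsta1 stands farthest to the right in double null hearts (1.53) and in MuRF1 null MuRF2 het hearts (1.22), and lies at 0.00 in MuRF1 het MuRF2 null hearts.

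Among the 4 alpha-class transferases, which conjugate products of lipid peroxidation, Gsta1 and Gsta2 were higher in both groups that lacked MuRF1 altogether. Gsta1 stood at 0.15, -0.16, -0.02 and -0.08 in double null hearts and at -0.43, -0.53, -0.83 and 0.41 in MuRF1 null MuRF2 het hearts. It stood at -1.52, -1.65, -1.54 and -1.54 in MuRF1 het MuRF2 null hearts and at -1.35, -1.40, -2.05 and -1.45 in wild-type hearts. Every heart of the first 2 groups was above every heart of the other 2 groups. The difference from wild type was 1.53 in double null hearts (2.89-fold, SE 0.20, adjusted p = 3.08e-04, limma) and 1.22 in MuRF1 null MuRF2 het hearts (adjusted p = 0.0145, limma). The MuRF1 het MuRF2 null difference was 0.00 (SE 0.20). Over the other settings it went as low as -0.41 and passed in none.

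Gsta2 had the same order of groups at dimmer signals. Its values were 0.15, -0.06, 0.27 and 0.39 in double null hearts and 0.18, 0.04, -0.03 and 0.64 in MuRF1 null MuRF2 het hearts. They were -0.57, -0.57, -0.50 and -0.50 in MuRF1 het MuRF2 null hearts and -0.43, -0.43, -0.72 and -0.54 in wild-type hearts. Again the first 2 groups did not overlap the other 2. The probe was above background on 3 of 4 arrays of the double null, MuRF1 null MuRF2 het and wild-type groups each and on 0 of 4 MuRF1 het MuRF2 null arrays. Gsta2 differed from wild type by 0.72 in double null hearts (adjusted p = 0.00178, limma) and by 0.74 in MuRF1 null MuRF2 het hearts (adjusted p = 0.017, limma). The call in MuRF1 null MuRF2 het hearts was lost without wild type 3 (adjusted p = 0.0668, limma) and without wild type 4 (adjusted p = 0.065, limma). Its level in MuRF1 het MuRF2 null hearts, not well above background on any array, is an upper limit, and no fold against that group is given.

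The MuRF1 null MuRF2 het calls of both genes were lost under several other settings. With array brightness as a covariate the differences were 1.23 for Gsta1 and 0.81 for Gsta2 (adjusted p = 0.0744 and 0.0649, limma), with the Cy5 channel alone 1.00 and 0.60 (adjusted p = 0.0536 and 0.0672, limma), and with the 2 groups fitted alone 1.22 and 0.74 (adjusted p = 0.106 and 0.1, limma). With median centring they were 0.40 and 0.26, and neither passed (adjusted p = 0.37 and 0.143, limma). With the log ratio of the Feature Extraction software and with the deposited value table, Gsta1 differed by 1.73 in each and lost its call (adjusted p = 0.0644 and 0.0627, limma). Gsta2 differed by 1.88 in each and passed (adjusted p = 0.0189 and 0.019, limma).

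The rise of Gsta1 and Gsta2 in double null hearts passed the test after each single array was left out and with the brightness of each array as a covariate (1.54 and 0.79; adjusted p = 0.00416 and 0.012, limma). Within slides, Gsta1 differed by 1.37 between the double null and wild-type hearts of slide 1 and by 1.70 between those of slide 3, and Gsta2 by 0.48 and 0.96. The size depended on the processing. With the Feature Extraction log ratio and with the deposited value table, Gsta1 differed by 2.28 and Gsta2 by 1.87, and both passed. With median centring the double null calls were lost: Gsta1 and Gsta2 differed by 0.71 and 0.25 (adjusted p = 0.133 and 0.163, limma), which lay 1.20 and 0.74 above the median of all genes. The other alpha members did not pass, although Gsta3 differed in double null hearts by nearly as much as Gsta2 (0.68 against 0.72). Its difference among MuRF1 null MuRF2 het hearts was 0.69, where Gsta2 had 0.74. A further Gsta3 probe gave 0.54 and 0.56 in these comparisons (unadjusted p = 0.00632 and 0.00491, limma). For MuRF1 het MuRF2 null hearts the tested Gsta3 probe gave 0.30 and the further probe 0.32. Gsta3 ranged over -1.93 to -0.32 in double null hearts and -1.98 to -1.61 in wild-type hearts, and Gsta4, which conjugates the lipid aldehyde 4-hydroxynonenal, over 0.28 to 1.41 and 0.97 to 1.31.

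**Figure D2:**
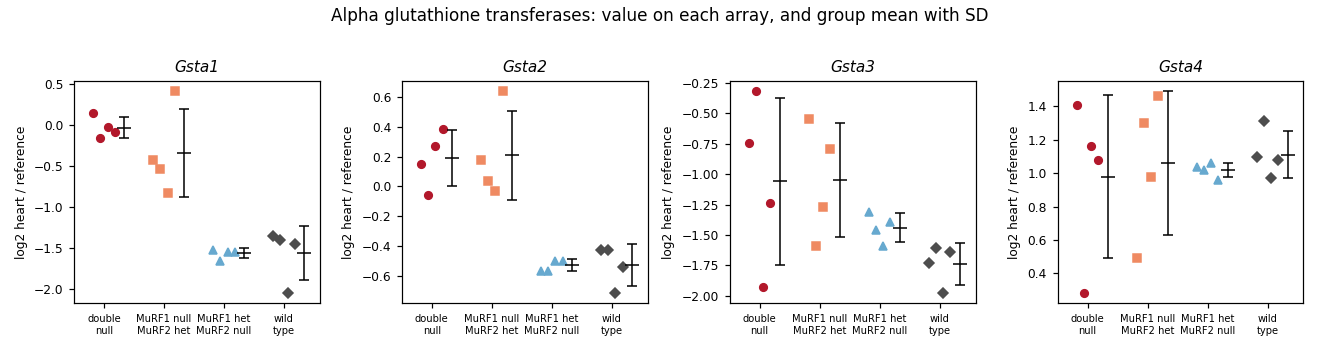
Log2 ratio of heart to reference (y axis) on each array for the 4 alpha-class transferases, by genotype; bars are the group mean and SD (n = 4). For Gsta1 and Gsta2 the double null and MuRF1 null MuRF2 het points lie above all MuRF1 het MuRF2 null and wild-type points. For Gsta4 the groups overlap. For Gsta3 the double null points overlap those of every other group. The Gsta3 points of both other mutant groups lie just above all wild-type points (lowest -1.59 in each, against a wild-type highest of -1.61).

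Few members of the mu, kappa, omega, pi, theta and zeta classes were called. In double null hearts 0 of 6 tested mu-class members rose and 1 fell, where 10.2% of all genes rose and 12% fell. Of 8 members of the kappa, omega, pi, theta and zeta classes 0 rose and 1 fell. Counts this small do not set these classes apart from all genes. The mu-class member that fell was Gstm7, at 0.36, 0.11, 0.25 and 0.24 in double null hearts and 0.67, 0.69, 0.45 and 0.57 in wild-type hearts (difference -0.35, adjusted p = 0.0116, limma); these ranges did not overlap, and it was above background on 2 of 4 double null arrays. The Gstm7 call was lost with array brightness as a covariate (-0.24, adjusted p = 0.199, limma), with the Cy5 channel alone (-0.10, adjusted p = 0.596, limma) and on slide 3 alone (-0.26, adjusted p = 0.145, limma), and with median centring Gstm7 lay 0.21 above the all-gene median. The other was Gstk1, the kappa-class enzyme of mitochondria and peroxisomes, at 2.89, 2.14, 1.82 and 2.18 in double null hearts and 2.96, 3.00, 2.36 and 2.80 in wild-type hearts. Its ranges overlapped, and its difference of -0.52 (adjusted p = 0.0466, limma) passed in only 2 of the 8 fits that left out 1 array, with adjusted p up to 0.126. The Gstk1 call was also lost with slide as a fixed block (adjusted p = 0.0643, limma), and with scaling between arrays the difference was -0.23 (adjusted p = 0.502, limma). Gstm1 and Gstp1, abundant cytosolic transferases, differed by 0.45 and 0.37 and did not pass, and another probe of each differed by -0.18 and 0.04. In double null hearts the 5 mu-class members that did not pass differed by -0.08 to 0.45, and the 7 of the other classes by -0.11 to 0.46 (lowest adjusted p = 0.0642 and 0.0655, limma).

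In MuRF1 het MuRF2 null hearts the mu-class member Gstm3 fell, as 1 of only 2 members. It stood at 1.23, 1.32, 1.13 and 1.15 in these hearts and at 1.87, 1.90, 1.49 and 1.63 in wild-type hearts, with no overlap (difference -0.52, adjusted p = 0.0225, limma). In the 2 groups without MuRF1 it ranged over 1.87 to 2.04 (double null) and 1.53 to 2.01 (MuRF1 null MuRF2 het), and did not pass against wild type. The Gstm3 difference was -0.14 with the Cy5 channel alone (adjusted p = 0.735, limma) and -0.45 with scaling between arrays (adjusted p = 0.168, limma). The call passed in 2 of the 8 fits without 1 array, with adjusted p up to 0.0907, and the other member that fell, Txndc9 (difference -0.44, adjusted p = 0.0499, limma), passed in 0 of 8.

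Of the microsomal transferases, membrane enzymes that also reduce lipid peroxides, Mgst2 rose by 0.63 in double null hearts (adjusted p = 0.0175, limma). It was above background on 1 of 4 double null, 0 of 4 MuRF1 null MuRF2 het and all 4 wild-type arrays, so its level in the MuRF1-null hearts was hardly measured. Its values were -0.95, -0.37, -1.27 and -0.99 in double null hearts and -1.47, -1.58, -1.59 and -1.47 in wild-type hearts, with no overlap, the highest being on double null 2, the dimmest array. With array brightness as a covariate the difference was 0.03. Mgst1 and Mgst3 differed from wild type by 0.05 and 0.04 and did not pass.

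Of 6 tested glutathione peroxidases, 4 (Gpx1, Gpx3, Gpx4 and Gpx8) were higher in double null hearts and none fell, where 10.2% of all genes were higher. With median centring all 4 lay below 0, and relative to the all-gene median Gpx1 lay lower (-0.32) while Gpx3 (0.46), Gpx4 (0.18) and Gpx8 (0.05) lay higher. Gpx1, Gpx3 and Gpx4 are selenoproteins: the cytosolic peroxidase, the secreted plasma form and the enzyme that reduces lipid hydroperoxides within membranes. Gpx8 is a peroxidase of the endoplasmic reticulum that uses cysteine.

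Gpx3 stood at 0.35, 0.49, 1.23 and 0.97 in double null hearts and at 0.02, 0.17, -0.20 and 0.22 in MuRF1 null MuRF2 het hearts. It stood at -0.30, -0.31, -0.11 and -0.29 in MuRF1 het MuRF2 null hearts and at 0.25, -0.04, -0.33 and -0.03 in wild-type hearts. Double null hearts alone were raised, above every heart of the other groups. The difference from wild type was 0.80 in double null hearts (adjusted p = 0.0047, limma) and 0.09 in MuRF1 null MuRF2 het hearts (adjusted p = 0.765, limma). The direct difference between those 2 groups, 0.71, had the lowest adjusted p of any member there, 0.0984 (limma), and did not pass. Within slides Gpx3 differed from wild type by 0.32 on slide 1 and by 1.28 on slide 3.

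Gpx8 was at 0.49, 0.39, 0.61 and 0.43 in double null hearts and 0.25, -0.03, -0.13 and -0.05 in wild-type hearts, with no overlap (difference 0.47, adjusted p = 0.00315, limma). MuRF1 null MuRF2 het hearts ranged over 0.07 to 0.29, below double null hearts and overlapping wild type. MuRF1 het MuRF2 null hearts ranged over -0.31 to -0.05. Gpx8 was higher in MuRF1 null MuRF2 het than in MuRF1 het MuRF2 null hearts, by 0.36 (adjusted p = 0.0294, limma). With array brightness as a covariate Gpx3 and Gpx8 differed from wild type by 1.02 and 0.42 and still passed (adjusted p = 0.00956 and 0.0496, limma).

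Gpx4 and Gpx1 moved with the brightness of the arrays. Gpx4 stood at 2.40, 2.48, 1.42 and 1.95 in double null hearts, 2.63, 1.27, 1.72 and 1.46 in MuRF1 null MuRF2 het hearts and 1.30, 0.98, 0.55 and 0.94 in wild-type hearts. Its difference of 1.12 in double null hearts passed (adjusted p = 0.00883, limma), and that of 0.82 in MuRF1 null MuRF2 het hearts did not (adjusted p = 0.114, limma). The highest value of both groups was on its dimmest array. Gpx1 stood at -0.37, -0.11, -0.49 and -0.59 in double null hearts, 0.18, -0.94, -0.53 and -0.97 in MuRF1 null MuRF2 het hearts and -0.84, -1.09, -0.92 and -0.95 in wild-type hearts. Its difference of 0.56 in double null hearts (adjusted p = 0.0466, limma) passed in 1 of the 8 fits without 1 array. Again the dimmest array of each group was the highest. With brightness as a covariate the differences were 0.23 for Gpx4 (adjusted p = 0.43, limma) and 0.00 for Gpx1 (adjusted p = 0.998, limma), while without both dimmest arrays they were 0.98 and 0.47 (adjusted p = 0.00175 and 0.00586, limma). Gpx2 and Gpx7 differed from wild type by 0.29 and 0.20 in double null hearts and did not pass. Gpx2, the form of the gut, was not well above background on any of the 8 arrays without MuRF1.

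**Figure D3:**
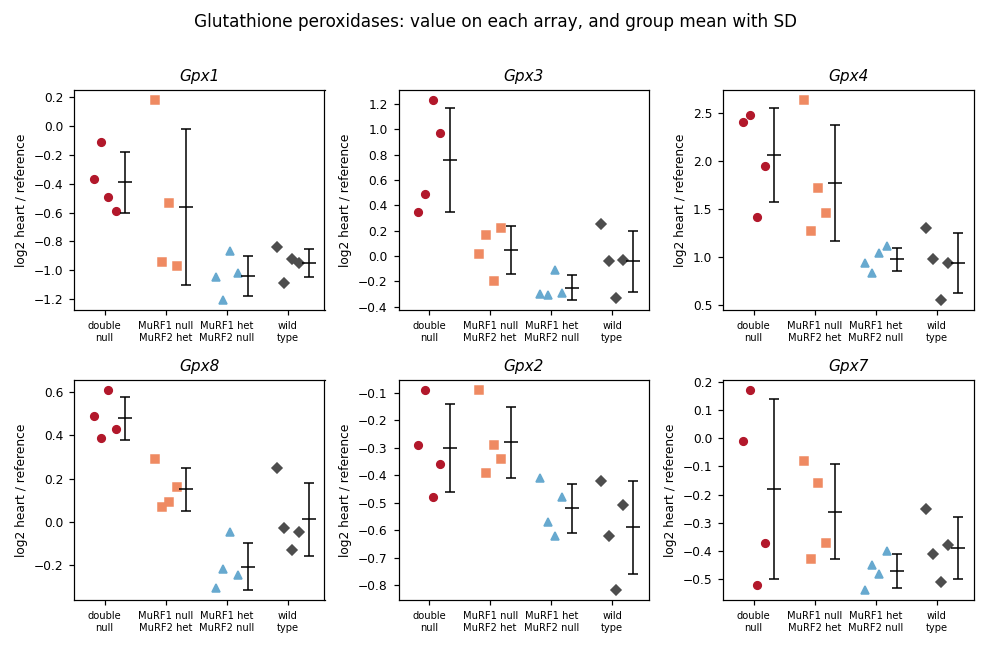
Log2 ratio of heart to reference (y axis) on each array for the 6 tested glutathione peroxidases, by genotype; bars are the group mean and SD (n = 4). For Gpx3 and Gpx8 every double null point lies above every point of the other groups. The highest MuRF1 null MuRF2 het points of Gpx1 (0.18) and Gpx4 (2.63) are both from the dimmest array of that group.

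The enzymes that make and recycle glutathione did not pass against wild type in any group. In double null hearts Gclc, the catalytic subunit of the ligase, differed by 0.19, its modifier subunit Gclm by -0.19, glutathione synthetase Gss by 0.10 and glutathione reductase Gsr by 0.02. The other probes of Gsr differed by 0.08 and 0.34, the larger with an unadjusted p of 0.00304 (limma). Gclm was not well above background on any double null array and was well above it on all 4 wild-type arrays. Nqo1, a quinone reductase, and Hmox1, the inducible haem oxygenase, are textbook targets of NRF2. Nqo1 stood at 2.85, 1.10, 1.92 and 2.04 in double null hearts and 1.50, 1.31, 1.59 and 1.39 in wild-type hearts (difference 0.53, adjusted p = 0.226, limma). Its spread among double null hearts was wide and spanned the wild-type range. Hmox1 ranged over -1.26 to -0.41 in double null hearts and -1.40 to -1.10 in wild-type hearts (difference 0.28, adjusted p = 0.243, limma).

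Sod2, the manganese superoxide dismutase of the mitochondrial matrix, fell in double null hearts. It stood at 1.12, 1.83, 1.43 and 1.32 in double null hearts and at 1.84, 1.95, 2.02 and 1.95 in wild-type hearts. The ranges did not overlap, although the highest double null heart (1.83) lay next to the lowest wild-type heart (1.84). MuRF1 null MuRF2 het hearts, at 1.68 to 1.90, and MuRF1 het MuRF2 null hearts, at 1.63 to 1.89, overlapped wild type and did not pass. The difference in double null hearts was -0.51 (adjusted p = 0.00745, limma), passed in all 8 fits without 1 array, and was -0.70 with array brightness as a covariate (adjusted p = 0.00891, limma). With scaling between arrays it was -0.29 and the call was lost (adjusted p = 0.352, limma). Sod1, the copper-zinc enzyme of the cytosol, ranged over 0.11 to 1.24 in double null hearts and -0.01 to 0.36 in wild-type hearts, the 1.24 being on the dimmest array, and did not pass. Catalase (Cat) ranged over -0.20 to 0.36 in double null hearts and -0.25 to -0.17 in wild-type hearts, with a difference of 0.23 that did not pass.

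None of the 6 peroxiredoxins passed against wild type in any of the 3 groups. In double null hearts their differences ran from -0.35 (Prdx5, in mitochondria and peroxisomes) to 0.46 (Prdx2, cytosolic), with adjusted p of 0.0575 or more (limma). Prdx4, of the endoplasmic reticulum, had that lowest p: it stood at -0.98 to -0.78 in double null hearts, above the -1.25 to -1.05 of wild-type hearts (difference 0.30). Prdx3, the main peroxiredoxin of mitochondria, differed by -0.08, Prdx6 by -0.07 and Prdx1 by 0.06. Other probes of Prdx2 differed by only 0.1 and 0.11, and another probe of Prdx6 by -0.29.

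Within the thioredoxin system the reductases parted in double null hearts. Txnrd1, the cytosolic selenoprotein reductase, was higher, at -0.37, -0.23, -0.19 and -0.30 in double null hearts and -0.66, -0.48, -0.49 and -0.52 in wild-type hearts (difference 0.27, adjusted p = 0.0196, limma), but lay 0.17 below the all-gene median with median centring. Txnrd3, known in mouse from testis, was lower, at 0.23, 0.23, 0.35 and 0.31 in double null hearts and 0.53, 0.53, 0.75 and 0.60 in wild-type hearts (difference -0.33, adjusted p = 0.0251, limma). Neither pair of ranges overlapped. The Txnrd1 call was lost without wild type 1 (adjusted p = 0.0565, limma) and with slide as a fixed block (adjusted p = 0.057, limma), and that of Txnrd3 without double null 1, wild type 3 or wild type 4 (adjusted p up to 0.0833, limma). With array brightness as a covariate the differences were 0.22 and -0.11, and neither passed. Txnrd2, the mitochondrial reductase, Txn1 and Txn2, the cytosolic and mitochondrial thioredoxins, and Txnip, which binds and inhibits thioredoxin, differed by -0.12, 0.15, 0.25 and -0.30 and did not pass. The other 2 probes of Txnrd2 differed by more, -0.38 and -0.37.

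The promoter of Txnrd1 is shown as that of the called reductase whose window holds the NRF2 core letters, here on the reverse strand, in capitals, ending 83 bases before the start of the gene (chr10:82858956-82859205, plus strand, RefSeq, GRCm38.p6).
Txnrd1 promoter: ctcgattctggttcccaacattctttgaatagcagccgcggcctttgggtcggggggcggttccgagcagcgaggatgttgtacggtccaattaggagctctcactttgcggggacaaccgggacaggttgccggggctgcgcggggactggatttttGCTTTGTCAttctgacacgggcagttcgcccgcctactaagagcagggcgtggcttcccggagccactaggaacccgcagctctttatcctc

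Thioredoxin-like and thioredoxin-domain proteins gave 4 members that rose and 2 that fell among 16 tested in double null hearts, where 10.2% of all genes rose and 12% fell; with median centring the 4 that rose, Txnl1, Glrx3, Txndc17 and Erp44, lay below the all-gene median. Txnl1, a thioredoxin-like protein that associates with the proteasome, stood at 1.11, 0.83, 1.10 and 1.02 in double null hearts and at 0.79, 0.59, 0.91 and 0.82 in MuRF1 null MuRF2 het hearts. It stood at 0.45, 0.53, 0.61 and 0.47 in MuRF1 het MuRF2 null hearts and at 0.45, 0.49, 0.44 and 0.48 in wild-type hearts. Double null hearts were all above wild type, by 0.55 (adjusted p = 5.53e-04, limma), and MuRF1 null MuRF2 het hearts lay between (difference 0.31, adjusted p = 0.0712, limma). Txnl1 kept its call with brightness as a covariate (0.57, adjusted p = 0.00678, limma).

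The remaining calls of this family were weaker. Glrx3, a glutaredoxin of iron handling, stood at 1.04, 0.86, 0.54 and 0.76 in double null hearts and 0.55, 0.39, 0.43 and 0.41 in wild-type hearts (difference 0.35, adjusted p = 0.0354, limma). Txndc17, a small thioredoxin-related protein, stood at -0.27, 0.07 and -0.06 on the 3 double null arrays with a value and at -0.49, -0.66, -0.34 and -0.49 in wild-type hearts (difference 0.41, adjusted p = 0.0436, limma). Double null values of both genes were mostly the higher ones, but the calls passed in only 2 (Glrx3) and 1 (Txndc17) of the 8 fits without 1 array. Erp44, a chaperone of the early secretory pathway, stood at -0.08, -0.28, -0.23 and -0.26 in double null hearts and -0.44, -0.48, -0.50 and -0.40 in wild-type hearts (difference 0.25, adjusted p = 0.0402, limma), but another of its probes differed by -0.37, and the call was lost with slide as a fixed block (adjusted p = 0.0708, limma). Txnl4a, a spliceosome protein with a thioredoxin fold, stood at -0.85, -0.60, -0.41 and -0.57 in double null hearts and -0.28, -0.18, -0.20 and -0.20 in wild-type hearts (difference -0.39, adjusted p = 0.00796, limma), with another probe at 0.23. The remaining probe of Erp44 differed by 0.05 and that of Txnl4a by -0.28. For Erp44 and Txnl4a the direction therefore depended on the probe. Tmx1, a membrane-bound oxidoreductase of the endoplasmic reticulum, stood at 0.41, 0.32, -0.04 and 0.15 in double null hearts and 0.64, 0.51, 1.31 and 0.88 in wild-type hearts (difference -0.62, adjusted p = 0.0279, limma), passing in 4 of 8 fits without 1 array. Its MuRF1 null MuRF2 het difference was -0.63 (adjusted p = 0.0962, limma). With array brightness as a covariate Glrx3 (0.09), Txndc17 (0.15), Erp44 (0.12), Txnl4a (-0.34) and Tmx1 (-0.60) all lost their calls (adjusted p from 0.0958 to 0.691, limma). The 10 members of this family that did not pass in double null hearts (Tmx2, Tmx3, Tmx4, Txnl4b, Txndc5, Txndc9, Txndc11, Txndc12, Txndc15 and Txndc16) differed by -0.39 to 0.20 (lowest adjusted p = 0.12, limma). The plot of these and other members sets all 4 genotypes side by side.

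**Figure D4:**
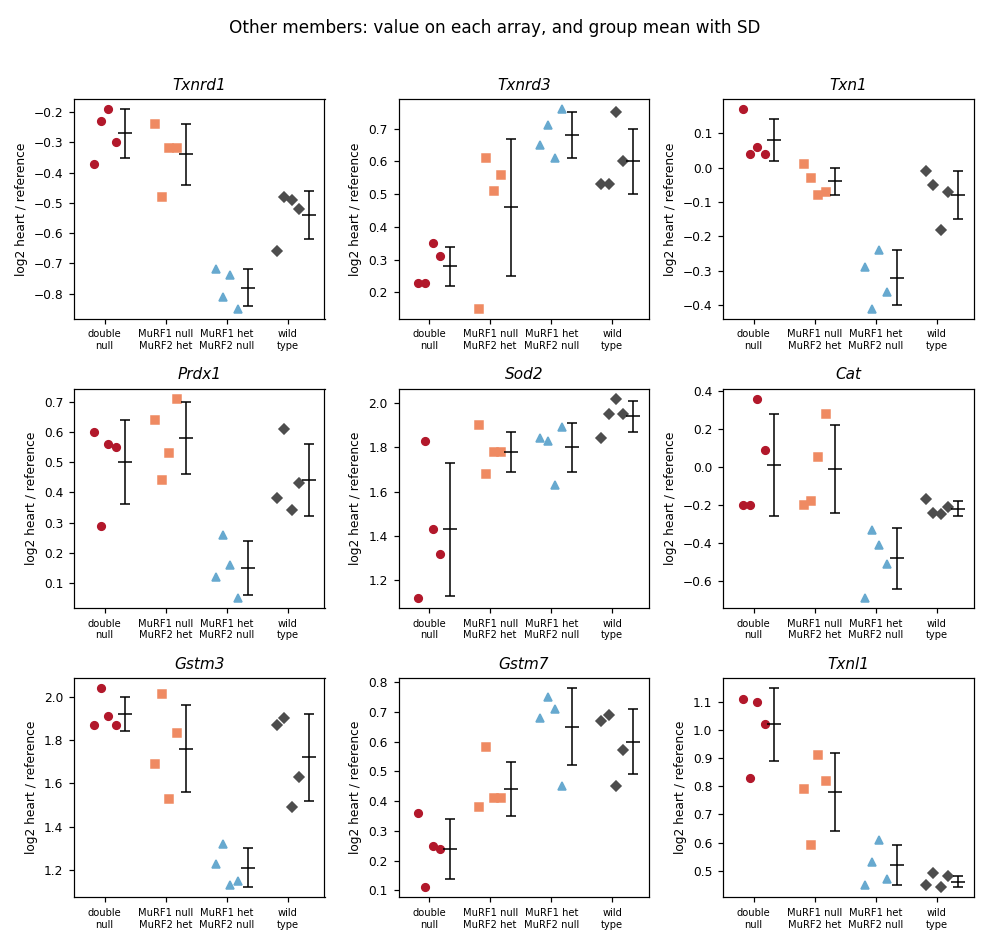
Log2 ratio of heart to reference (y axis) on each array for 9 members of the thioredoxin, peroxiredoxin, dismutase, catalase and mu-class groups, by genotype; bars are the group mean and SD (n = 4). By group mean, Sod2 and Txnrd3 are lowest in double null hearts, Txnl1 highest there, and Txn1, Prdx1, Gstm3 and Cat lowest in MuRF1 het MuRF2 null hearts.

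The 3 mutant groups were also set against each other. Between double null and MuRF1 null MuRF2 het hearts, which differ in the remaining copy of MuRF2, limma called 0 of 64 members, where 0.349% of all genes were called (0.162% higher, 0.187% lower); 6 members (9.38%) had an unadjusted p under 0.05, 3 higher and 3 lower, against 9.67% of all tested genes. Gsta1 differed by 0.32 (adjusted p = 0.68, limma) and Gsta2 by -0.02. Between double null and MuRF1 het MuRF2 null hearts, which differ in the remaining copy of MuRF1, 21 members were higher and 5 lower (40.6%), where 26.4% of all genes were called (13.7% higher, 12.7% lower). Gsta1 (1.53), Gpx4 (1.08), Gpx3 (1.01), Gstm3 (0.72), Gpx8 (0.69), Hmox1 (0.61), Cat (0.50) and Txn1 (0.40) were among the higher, and Gstm7, Txnrd3, Gstt1, Sod2 and Txnl4a were the lower. Of these lower members, Sod2 passed in 3 of the 8 fits without 1 array, and other probes of Txnl4a differed by 0.41 and -0.04. In MuRF1 null MuRF2 het hearts, set against MuRF1 het MuRF2 null hearts, 13 members were higher and 0 lower (20.3%), where 8.52% of all genes were called (4.58% higher, 3.94% lower), with Gsta1 at 1.22, Txnrd1 at 0.44, Prdx1 at 0.43 and Txn1 at 0.28. Gsta2 is counted among the higher members of both comparisons, although it was not well above background in any MuRF1 het MuRF2 null heart, and Gstt1 was not well above background in any double null heart. Txnrd1 stood at -0.37, -0.23, -0.19 and -0.30 in double null hearts, -0.24, -0.48, -0.32 and -0.32 in MuRF1 null MuRF2 het hearts and -0.72, -0.81, -0.74 and -0.85 in MuRF1 het MuRF2 null hearts. Gstm3 stood at 1.87, 2.04, 1.91 and 1.87 in double null hearts and 1.69, 2.01, 1.53 and 1.83 in MuRF1 null MuRF2 het hearts, against the 1.13 to 1.32 of MuRF1 het MuRF2 null hearts. In both genes the MuRF1 het MuRF2 null hearts were the low ones and overlapped neither other mutant group. The same held for Prdx1, a cytosolic peroxiredoxin, at 0.60, 0.29, 0.56 and 0.55 in double null hearts, 0.64, 0.44, 0.53 and 0.71 in MuRF1 null MuRF2 het hearts and 0.12, 0.26, 0.16 and 0.05 in MuRF1 het MuRF2 null hearts. Txndc9 stood at 0.52, 0.09, 0.60 and 0.39 in double null hearts, 0.20, 0.31, 0.39 and 0.58 in MuRF1 null MuRF2 het hearts, -0.16, -0.09, -0.13 and -0.15 in MuRF1 het MuRF2 null hearts and 0.25, 0.47, 0.16 and 0.35 in wild-type hearts. Here too only the MuRF1 het MuRF2 null hearts stood apart. With median centring no member passed in either of the comparisons with MuRF1 het MuRF2 null hearts, and 11 of the 26 and 9 of the 13 called differences turned sign. The MuRF1 het MuRF2 null group lay on a slide of its own that was quantified with a later version of Feature Extraction. Genotype, slide and software version therefore cannot be told apart here.

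Other genes of the pathway were read from 5 lists; in double null hearts 10.2% of all tested genes rose and 12% fell. Of 17 tested NRF2 targets outside the members, 5 rose and 0 fell in double null hearts: Sqstm1, an autophagy receptor that also binds KEAP1 (1.02), Cbr3, a carbonyl reductase (0.60), Osgin1 (0.50), Srxn1, which repairs overoxidised peroxiredoxins (0.38), and the ferritin light chain Ftl1 (0.30). With median centring all 5 lay below 0, and relative to the all-gene median Ftl1 lay lower (-0.38) while Cbr3 (0.33), Osgin1 (0.30), Sqstm1 (0.10) and Srxn1 (0.08) lay higher. Sqstm1 also rose by 0.56 in MuRF1 null MuRF2 het hearts, as 1 of the 17, but lay 0.37 below the all-gene median there with median centring. Of Nfe2l2 and its partners, 1 of 7 rose in double null hearts, the small Maf protein Maff (0.67), and none fell. Of 14 genes of glutathione turnover and the glutaredoxins, 1 rose (Glrx3, also a member) and 4 fell: Nnt, the mitochondrial transhydrogenase that supplies NADPH (-1.18), Idh2, another source of mitochondrial NADPH (-0.78), the oxoprolinase Oplah (-0.39) and the gamma-glutamyl transferase Ggt5 (-0.38). Of 18 other redox repair genes, 4 rose and 1 fell, with Selenow at 0.83, Park7 at 0.73, Msrb1 at 0.48, Pon2 at 0.42 and the mitochondrial methionine sulphoxide reductase Msrb2 at -0.65; relative to the all-gene median with median centring Park7 (-0.08) and Msrb1 (-0.34) turned lower. Of 5 tested oxidant sources, monoamine oxidase Maoa rose (0.87) and the NADPH oxidase subunit Cybb fell (-0.29), though Cybb and Ggt5 lay 0.26 and 0.04 above the all-gene median with median centring. With array brightness as a covariate, Sqstm1 (1.20), Nnt (-0.81), Park7 (0.52), Pon2 (0.60) and Maoa (0.86) kept their double null calls (adjusted p up to 0.0438, limma), and the other genes called in these lists lost theirs. Cbr3 was then at 0.32 (adjusted p = 0.0937, limma), Srxn1 at 0.32 (adjusted p = 0.214, limma), Ftl1 at 0.20 (adjusted p = 0.324, limma), Osgin1 at 0.00 (adjusted p = 0.995, limma) and Maff at 0.23 (adjusted p = 0.517, limma). The Sqstm1 call in MuRF1 null MuRF2 het hearts was lost as well (0.73, adjusted p = 0.0623, limma). In MuRF1 het MuRF2 null hearts Pgd (-0.39) and Hmox2 (-0.49) fell, Hmox2 reaching 0.04 with the Cy5 channel alone, and no gene of the 5 lists rose.

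Markers of other cell types moved as well in double null hearts. Of 9 endothelial markers 7 fell, and their summed linear ratio was 9.77 to 11.6 in double null hearts and 16.5 to 17 in wild-type hearts. Of 4 atrial markers 3 rose, with a summed ratio of 21.7 to 99.9 in double null hearts and 4.68 to 5.94 in wild-type hearts, led by Nppa. Of 8 cardiomyocyte markers 3 fell, among them Myh6 (-1.52), and 2 of 8 fibroblast markers rose. Of 5 smooth muscle and pericyte markers 1 rose and 2 fell, and 1 of 6 macrophage and 1 of 6 adipocyte markers rose. None of 3 red blood cell or 2 liver markers passed, and the summed ratio of the liver markers, relevant because alpha-class transferases are abundant in liver, was 0.219 to 0.496 in double null hearts and 0.188 to 0.252 in wild-type hearts. Where Gsta1 and Gsta2 were also high, in MuRF1 null MuRF2 het hearts, 1 of 9 endothelial markers fell and 0 of 4 atrial markers passed. Their summed ratios there were 9.78 to 15.2 for the endothelial and 7.37 to 8.84 for the atrial markers, outside the wild-type range on every array, and that of the liver markers was 0.23 to 0.514. In MuRF1 het MuRF2 null hearts, where neither Gsta1 nor Gsta2 was raised, the atrial sum was 7.8 to 16.8, also above wild type on every array. The endothelial and liver sums were 14.3 to 18.5 and 0.212 to 0.271 in that group. Of the markers called, Ryr2, Tie1, Lum and Tagln turned relative to the all-gene median with median centring, and Myl7 and Tagln turned with array brightness as a covariate. The part of these cell types in the differences of members was not tested.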

How the data were processed

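Heart RNA (Cy5) and a common pup reference (Cy3), from 50 ng of total RNA each, were hybridised to 16 two-colour Agilent arrays, and the label of each channel was taken from the sample labels, although the labelling protocol names only Cy3. The authors scanned and quantified the arrays with Feature Extraction 9.1.3.1 (12 arrays) or 9.5.3.1 (4 arrays), per the file headers, and deposited the mean and background intensity of every spot in both channels. The same deposited files hold Feature Extraction's log10 ratio of Cy5 over Cy3. The deposited value table holds log2 values: 99.8% of those of kept probes lay within 0.01 of that log ratio minus its median over the arrays, so each probe was centred and the direction is heart over reference; column medians were -0.03 to 0.02. No label or file header used here names the authors' genome build.

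From the intensities, normexp background correction (offset 50) and loess within each array were run in limma 3.58.1. Outlier spots were left out (1 member, Txndc17, lacked 1 array value), spots of a probe were averaged, and probes had to be well above background in Cy5 on 4 of 16 arrays. The brightest probe stood for a gene. One limma fit over the 4 groups of 4 gave 6 comparisons, with Benjamini-Hochberg adjusted p-values over all genes, called under 0.05. Symbols were updated through RefSeq accessions and synonyms. The fit was tested on simulated data. Members and gene lists were chosen with earlier results of these data known. Genes named are all called members and, where not called, the enzymes and markers of each role. Animals within a group are separate samples per the labels; 4 arrays per group limit the precision. Same-numbered samples did not deviate together (9 of 24 pairs with r above 0.1), so numbers were not used as pairs. Alternatives covered the background correction and normalization, array brightness, filters, probes, slides, array weights and leaving out arrays; leaving out both dimmest arrays was added after seeing the data.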

Additional observations from a re-analysis of the deposited data

Results flagged for a closer look

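On single arrays, 9 of the 172 groups of 4 values examined for named members (5.23%) held 1 value far from the other 3, where chance gives about 1 in 20 groups. Double null 2, the dimmest array, gave 2 of them: Sod1 at 1.24, against 0.11 to 0.25 on the other double null arrays, and Prdx1 at 0.29, against 0.55 to 0.60. Double null 1 had the highest Txn1 of its group, 0.17. In MuRF1 null MuRF2 het hearts the one case was Gstk1 at 2.85 on array 2. In MuRF1 het MuRF2 null hearts, whose other values lay close together, the cases were Gclm at -0.15 and Txnl4a at -0.46 on array 4, Gpx3 at -0.11 on array 3 and Gsta1 at -1.65 on array 2. In wild-type hearts Gsta1 was lowest on array 3, at -2.05, against -1.45 to -1.35 on the others; without that array its difference from wild type passed in double null hearts and in MuRF1 null MuRF2 het hearts (adjusted p = 0.0489, limma). The cause of these single values was not tested.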

How the results depend on the processing

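In double null minus wild type (18 members called), the count was 10 with the Feature Extraction log ratio or the value table, 29, all lower, with median centring, 11 with Cy5 alone, 8 with array brightness as a covariate, 32 with array weights, 0 on slide 1 alone, 17 on slide 3 alone, 19 with the replicate block and 11 (without wild type 4) to 21 with single arrays left out. In MuRF1 null MuRF2 het minus wild type (2), it was 1 with the Feature Extraction ratio, the value table or the strict filter, 33, all lower, with median centring, 0 with Cy5 alone, brightness or the 2 groups alone, 12 with array weights, 2 with the replicate block and 1 (without wild type 3) to 7 (without MuRF1 null MuRF2 het 2) without single arrays. In MuRF1 het MuRF2 null minus wild type (2), it was 0 with the Feature Extraction ratio or value table, 5 with median centring, 1 with scaling, the mean of probes or the replicate block, 6 with Cy5 alone, 8 with brightness, 21 with array weights, 15 with the 2 groups alone, 9 without both dimmest arrays and 0 to 1 without any single array. In double null minus MuRF1 null MuRF2 het (0), it was 1 with scaling or brightness, 2 with Cy5 alone, 11 with array weights, 3 without both dimmest arrays, 0 with the replicate block and 0 to 2 without single arrays. In double null minus MuRF1 het MuRF2 null (26), it was 0 with median centring, 13 with brightness, 43 with array weights, 26 with the replicate block and 18 to 30 without single arrays. In MuRF1 null MuRF2 het minus MuRF1 het MuRF2 null (13), it was 4 with the Feature Extraction ratio or value table, 0 with median centring, 8 with brightness, 26 with array weights, 12 with the replicate block and 4 (without MuRF1 het MuRF2 null 1) to 20 (without MuRF1 null MuRF2 het 2) without single arrays.

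Of the settings tried on single genes, 1046 kept direction and call, 370 lost the call and 52 turned sign. With median centring, differences turned in double null minus wild type for Erp44 (-0.57), Glrx3 (-1.03), Gpx1 (-0.81), Gpx3 (-0.03), Gpx4 (-0.31), Gpx8 (-0.44), Mgst2 (-0.02), Txndc17 (-1.07), Txnl1 (-0.71) and Txnrd1 (-0.66). They turned in double null minus MuRF1 het MuRF2 null for Cat (-0.01), Glrx3 (-0.24), Gpx1 (-0.10), Gstm1 (-0.30), Gstm5 (-0.08), Prdx1 (-0.29), Prdx2 (-0.32), Txn1 (-0.23), Txn2 (-0.18), Txndc17 (-0.47) and Txnl1 (-0.24). They turned in MuRF1 null MuRF2 het minus MuRF1 het MuRF2 null for Cat (-0.05), Glrx3 (-0.39), Gpx8 (-0.10), Gstm3 (-0.04), Gstm5 (-0.03), Prdx1 (-0.26), Txn1 (-0.39), Txn2 (-0.16) and Txnrd1 (-0.06). Median centring moved the median of all genes by -0.49, -0.51 and -0.34 in the comparisons with wild type; it leaves in any dye bias that depends on brightness, by construction. Elsewhere Erp44 turned with Cy5 alone (-0.01), the strict filter (-0.37) and the mean of probes (-0.02), where another probe enters, Gclc with the Feature Extraction ratio and the value table (-0.27) and Cy5 alone (-0.15), Txnl4a with the mean of probes (0.01) and Gpx1 went to 0.00 with brightness. Gsta1 and Gsta2 in MuRF1 het MuRF2 null minus wild type were 0.00 with brightness. Without single arrays they ran from -0.16 to 0.07 and from -0.07 to 0.03. Over the other settings Gsta1 went as low as -0.41 and Gsta2 as low as -1.19, and neither passed in any. Gsta2 in double null minus MuRF1 null MuRF2 het was 0.09 with array weights, 0.06 without both dimmest arrays and -0.10 to 0.12 without single arrays. Slide as a random block (correlation -0.0077) changed no count by over 1.5 times. That fit cannot show a slide effect for MuRF1 null MuRF2 het or MuRF1 het MuRF2 null hearts, because each of these groups lay on a slide of its own. The blocked fits are given once because numbers did not pair the samples. The causes of these changes were not tested unless named. Dim double null arrays limit what can be said of members near background, such as Mgst2, Gsta2, Gpx2 and Gclm.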
